A study of Homo sapiens with 6 samples.

Results

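Cassette exons are exons that a transcript can either keep or leave out between the same pair of neighbours. The exons described here are cassette exons of 52 to 200 bases whose length is not a multiple of 3. They were chosen by length alone, from the skipped exon (SE) events that the authors deposited. Of 40622 SE events, 19958 (49.1%) met this rule, and they covered 15967 distinct exons in 7283 genes. The comparison sets were the 13437 events of the same length range whose exon is a multiple of 3, the 2394 events of shorter exons and the 4833 events of longer exons.

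When such an exon lies within the coding sequence, leaving it out changes the reading frame of everything downstream. The shifted frame usually meets an early stop codon, and a stop codon upstream of an exon junction marks the transcript for nonsense-mediated decay, the surveillance pathway that needs UPF1, the UPF3 proteins and the SMG factors. Cells also use such exons on purpose, as poison exons that tune the level of splicing regulators. The deposited events give no coding positions, so here "frame-shifting" means the length of the exon and not a tested effect on a protein.

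RNA came from LNCaP cells, a human prostate cancer line derived from a lymph node metastasis that responds to androgen. In 3 libraries (replicates 1, 2 and 4) the cells stably expressed Flag-KDM4B, a tagged wild-type lysine demethylase that removes methyl groups from histone H3, and in 3 others (replicates 1, 2 and 3) they carried the empty vector. All 6 cultures had spent 3 days in RPMI with 10% CFBS, as the labels abbreviate it, before harvest. The labels give neither the promoter of the transgene nor whether each line was 1 clone, and they do not say that replicates were separate cultures, so p-values reflect the spread among these 6 libraries alone, which may be technical. The series asks which splicing events differ between the lines.

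FPKM of the targeted gene, KDM4B, was 26.33, 27.17 and 25.76 where the label says KDM4B and 24.73, 25.15 and 25.28 where it says vector. That difference missed the threshold as deposited (log2 fold change 0.07, SE 0.039; limma, adjusted p = 0.113) and passed it after median-of-ratios scaling (0.31; limma, adjusted p = 1.93e-05), so directions below rest on the label. In these bulk samples, fewer cells that express a gene and less RNA per cell cannot be told apart. All 12 luminal prostate markers exceeded 1 FPKM in every library, and 11 of 14 immune, endothelial and fibroblast markers stayed below 1 FPKM in every library, the exceptions being CD68, LYZ and COL1A1. The summed FPKM of these 14 markers was 8.37 to 9.65 in the libraries labelled KDM4B and 8.17 to 8.79 in the vector libraries, and that of the luminal markers 1860.4 to 1926 and 4614 to 4811. Ribosomal RNA made up 8.12% to 10.5% of summed FPKM in the KDM4B-labelled group and 0.144% to 0.471% in the vector group. Its part in the results below was not tested. Counts over the frame-shifting events summed to between 6388948 and 6628203 per library labelled KDM4B and between 7421432 and 7702756 per vector library, 44.8% to 45.3% of all SE counts.

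Frame-shifting exons outnumbered frame-preserving ones of the same length range because they hold both other remainders of a division by 3. There were 10098 events with remainder 1 and 9860 with remainder 2, against 13437 multiples of 3, so each remainder class was smaller than the frame-preserving class. Their median length was 115 bases, and that of the frame-preserving exons 111 bases. The deposited table lists transcripts for each splice form, and it named a transcript that lacks the exon for 1947 frame-shifting events (9.76%). The same share was 16.7% for frame-preserving exons, 23.8% for shorter exons and 16.9% for longer exons. Where a skipping transcript was named, it was known from assembly alone, with no RefSeq transcript, in 275 cases (14.1%) for the frame-shifting and 214 cases (9.53%) for the frame-preserving exons. These shares describe the table and were not tested.

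**Figure D1:**
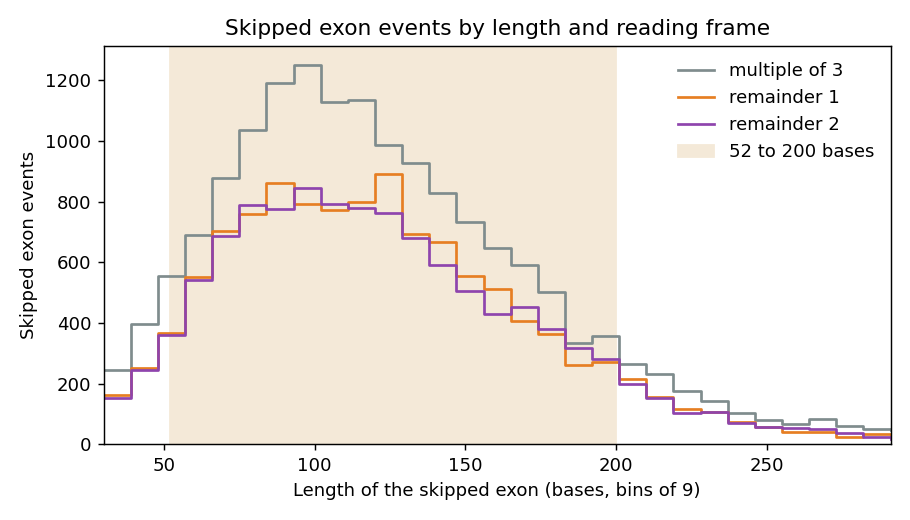
Number of SE events (vertical axis) by length of the skipped exon in bases (horizontal axis, bins of 9 bases), drawn as a line for each remainder of the length after division by 3. Within the shaded range of 52 to 200 bases the line for multiples of 3 runs above both other lines, which sum to 10098 and 9860 events.

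Each SE event carried 1 count per library that joined both splice forms. The forms could be separated where the table of mutually exclusive exons (MXE) held the same pair of exons between the same flanks, and this gave inclusion and skipping reads for 3084 frame-shifting events (15.5%) on 2539 distinct exons. For the other events only the joint count is known. A skipping read here lacks both exons between the flanks, so a transcript that leaves out the named exon and keeps its partner was not counted as skipping. No skipping read was seen in any library for 319 of the 3084 events (10.3%), and for 10.0% of the recovered frame-preserving events. Inclusion reads seem, from their counts, to include reads within the exon, though the splicing caller is not named. Their share is therefore not read as an isoform fraction. Positions are given as deposited. The build they refer to is uncertain, since the submitters' notes name GRCh38 and only 12.1% of the frame-shifting exons lie inside their gene there. No sequence is printed for that reason.

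Inclusion reads far outnumbered skipping reads for most frame-shifting exons with measurable skipping, in both groups. At least 10 reads per library and 10 reads of each form over all libraries were found for 664 events in 384 genes, with a median of 114 reads per library. Median inclusion was 95.9%, 96.2% and 96.0% in the libraries labelled KDM4B and 96.6%, 96.7% and 96.5% in the vector libraries. The mean share of inclusion reads was above 95% for 373 events (56.2%) and below 50% for 75 (11.3%). For the frame-preserving exons these shares were 51.1% and 12.5%. Inclusion was lower where the table named a skipping transcript, with library medians of 78.0% to 81.0% over 213 events, than for the other 451 events, with library medians of 97.5% to 98.3%. Exons of 52 to 75 bases had medians of 90.9% to 93.4%, and those of 151 to 175 bases medians of 97.3% to 98.4%.

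Less inclusion was called in the libraries labelled KDM4B for 31 frame-shifting events in 19 genes, and more inclusion for 5 events in 4 genes (edgeR quasi-likelihood test, Benjamini-Hochberg adjusted over all 1351 tested SE events). That is 5.42% of those tested, against 5.55% called over all tested SE events; in each direction it is 4.67% and 0.753%, against 4.74% and 0.814%. The share of frame-shifting exons called was thus near that of all exons, and 30 of 481 frame-preserving exons (6.24%) were called. The median log2 odds ratio of inclusion was -0.09, the same as over all tested SE events, and 53.2% of the values lay below 0. Groups did not overlap for 175 events (26.4%, against 25.8% over all tested SE events), among them all 36 called. Remainder 1 gave 19 calls of 348 and remainder 2 gave 17 of 316. Mean inclusion differed by at least 10 percentage points for 60 events, 28 of them lower and 32 higher, of which 11 passed the test. Calls shared reads, since partner exons have the same skipping reads: the 36 calls lay between 27 pairs of flanks.

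**Figure D2:**
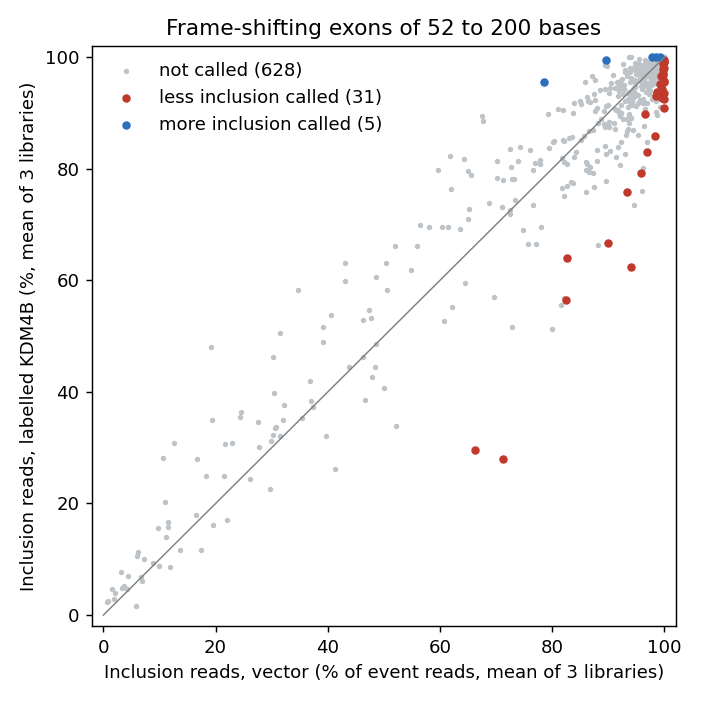
Mean share of inclusion reads (% of the reads of the event, 3 libraries per group) in the vector libraries (horizontal axis) and in the libraries labelled KDM4B (vertical axis) for the 664 tested frame-shifting exons, with the line of equality. The 31 exons called with less inclusion lie below the line, the 5 called with more inclusion above it, and most points sit in the upper right corner above 95%.

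The named exons with less inclusion came from 12 genes. FASTK encodes the founding member of a family of mitochondrial RNA-binding proteins. Its 140-base exon (chr7:150775649-150775788, minus strand) had 19, 18 and 18 skipping reads in the libraries labelled KDM4B and 0, 0 and 1 in the vector libraries, with 373 to 436 and 469 to 546 inclusion reads. Inclusion was 95.2%, 95.6% and 96.0% against 99.8% in vector replicate 3 and no skipping at all in the other vector libraries, so the groups did not overlap (edgeR, adjusted p = 1.66e-05). Adjacent FASTK exons of 115 and 136 bases shared 15, 27 and 23 skipping reads against 7, 7 and 4, and were called as well (edgeR, adjusted p = 0.00399 and 0.00543). This call of the 140-base exon was kept whichever library was left out. A second event of the same exon, with another exon on 1 side, had 97.9% against 99.7% (edgeR, adjusted p = 0.0311), and its call was lost without KDM4B replicate 4 or any of the vector libraries. That of the 115-base exon was lost without vector replicate 3, and that of the 136-base exon without vector replicate 1 or 3.

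MRPL55, a protein of the large mitochondrial ribosomal subunit, had a 67-base exon (chr1:228296656-228296722, minus strand) at 62.6%, 59.5% and 69.9% inclusion in the libraries labelled KDM4B and 84.9%, 80.5% and 82.3% in the vector libraries. Every library labelled KDM4B lay below every vector library (64.0% ± 5.36 against 82.6% ± 2.22; SD, n = 3 each; edgeR, adjusted p = 0.0155). The call was lost without either replicate 1, and without KDM4B replicate 2 or vector replicate 3. ITPA, which clears inosine triphosphate from the nucleotide pool, had a 58-base exon (chr20:3193815-3193872, plus strand) at 75.0%, 76.2% and 76.3% against 93.5%, 95.5% and 90.8%. The libraries labelled KDM4B lay close together and below all vector libraries (75.8% ± 0.736 against 93.3% ± 2.32; SD, n = 3 each; edgeR, adjusted p = 0.0189). Its neighbour of 65 bases had the same skipping reads, 19, 20 and 22 against 6, 5 and 10, and was called too (adjusted p = 0.0241 in the same edgeR test). The call of the 58-base exon was lost without KDM4B replicate 1 or any of the vector libraries. SDR39U1, a short-chain dehydrogenase-like protein, had 94.0%, 93.1% and 92.2% against 98.6%, 98.9% and 97.9% for an exon of 83 bases (chr14:24911384-24911466, minus strand). Its call (edgeR, adjusted p = 0.0391) was lost in each of the 6 fits that left out a library. With 22 skipping reads against 9, it met the minimum of 10 only through the libraries labelled KDM4B.

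C16orf13 (now METTL26), a methyltransferase-like protein, had the lowest p of the named exons in the inclusion test. Its 163-base exon (chr16:685612-685774, minus strand) had 90, 82 and 77 skipping reads in the libraries labelled KDM4B and 20, 20 and 11 in the vector libraries, beside 430 to 558 and 973 to 1104 inclusion reads. Inclusion was 85.6%, 87.2% and 84.8% against 98.1%, 98.2% and 98.9%, and the groups did not overlap (85.9% ± 1.20 against 98.4% ± 0.436; SD, n = 3 each). The log2 odds ratio was -3.32 (SE 0.42; edgeR, adjusted p = 4.47e-07), and the call was kept whichever library was left out. The table names RefSeq transcripts that lack this exon. A 68-base exon of the same gene (chr16:684889-684956) was called with the same skipping reads, at 62.4% against 94.0% inclusion (edgeR, adjusted p = 3.79e-07).

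SLC2A8 encodes the intracellular glucose transporter GLUT8. Inclusion of its 163-base exon (chr9:130159655-130159817, plus strand) was 55.1%, 65.8% and 48.4% in the libraries labelled KDM4B and 85.5%, 79.0% and 82.9% in the vector libraries. Its skipping reads, 35, 53 and 47 against 8, 17 and 13, were higher in every library labelled KDM4B (edgeR, adjusted p = 0.0285). In 5 of 6 fits that left out a library the call was lost, the exception being KDM4B replicate 2. SLC50A1, a sugar transporter of the SWEET family, had a 124-base exon (chr1:155109304-155109427, plus strand) at 92.2%, 89.0% and 88.1% against 97.0%, 96.1% and 96.7% (89.7% ± 2.17 against 96.6% ± 0.449; SD, n = 3 each; edgeR, adjusted p = 0.0171; lost without KDM4B replicate 2 or vector replicate 1 or 3). For SLC22A17, a receptor of the iron carrier lipocalin 2, a 106-base exon (chr14:23817100-23817205, minus strand) had 82.8%, 78.2% and 88.1% against 97.1%, 94.9% and 98.7%. Its counts were low, with 10, 12 and 5 skipping reads against 3, 5 and 1, and the call (edgeR, adjusted p = 0.0240) was kept only without KDM4B replicate 4. With 27 against 9 over the groups, the minimum of 10 skipping reads was met only through the libraries labelled KDM4B.

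CPNE7, a copine that binds membranes in response to calcium, had the widest gap in mean inclusion of the called exons. Inclusion of its 85-base exon (chr16:89649852-89649936, plus strand) was 29.8%, 29.3% and 25.0% in the libraries labelled KDM4B and 84.3%, 74.2% and 55.4% in the vector libraries, which differed more among themselves. Skipping reads were 40, 41 and 48 against 17, 25 and 33, and inclusion reads 17, 17 and 16 against 91, 72 and 41 (log2 odds ratio -2.76, SE 0.55; edgeR, adjusted p = 0.00143). Without vector replicate 1 the call was lost. CGREF1, a secreted calcium-binding protein linked to growth arrest, had a 101-base exon (chr2:27324656-27324756, minus strand) at 75.3%, 87.3% and 75.0% against 97.1%, 95.8% and 94.6% (edgeR, adjusted p = 0.00369; also lost without vector replicate 1). KDM4B replicate 2 was the highest of its group and still lay below every vector library.

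In 2 further genes the vector libraries held no skipping read at all. Such events reached the minimum of 10 skipping reads only through the group where skipping was seen, so their calls and fold values describe events that had to differ. Over both directions 15 tested events had skipping reads in 1 group only, of which 9 were called, and the other 649 held 27 of the 36 calls. Those 27 are not free of this selection, since many of them met the minimum through 1 group as well. Skipping reads (KDM4B label against vector) were 55 against 1 and 27 against 5 for the called events of the 140-base FASTK exon. They were 13 against 1 in AKR7A2, 27 against 2 in IRF3, 49 against 8 in RHOA and 21 against 5 in PKD1. SLC22A17 had 27 against 9, SDR39U1 22 against 9 and 1 SLC50A1 event 18 against 2. FAM208B had 7 against 44 and the 154-base ZZZ3 exon 1 against 25. Adjusted p-values of all these events carry this limit. WDR90, a protein of the centriole wall, had 2, 5 and 4 skipping reads in the libraries labelled KDM4B and 0, 0 and 0 in the vector libraries for its 58-base exon (chr16:703746-703803, plus strand), beside 41 to 48 and 54 to 63 inclusion reads. The skipping share was 7.48% of the reads of the libraries labelled KDM4B together (edgeR, adjusted p = 0.0283). That is 4.41-fold the 1.69% that 0 of 177 reads allow in the vector libraries, at a floor of 3 reads over the group. The 7.48% is taken as observed, so this fold value leaves out its counting error and is not a lower limit. SORBS3 encodes vinexin, an adaptor at focal adhesions. Its 140-base exon (chr8:22423858-22423997, plus strand) had 8, 2 and 3 skipping reads against 0, 0 and 0, a 3.80-fold difference by the same floor (edgeR, adjusted p = 0.0382). Both calls rested on few reads, and both were lost without any of the vector libraries; WDR90 was also lost without KDM4B replicate 2 and SORBS3 without KDM4B replicate 1.

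**Figure D3:**
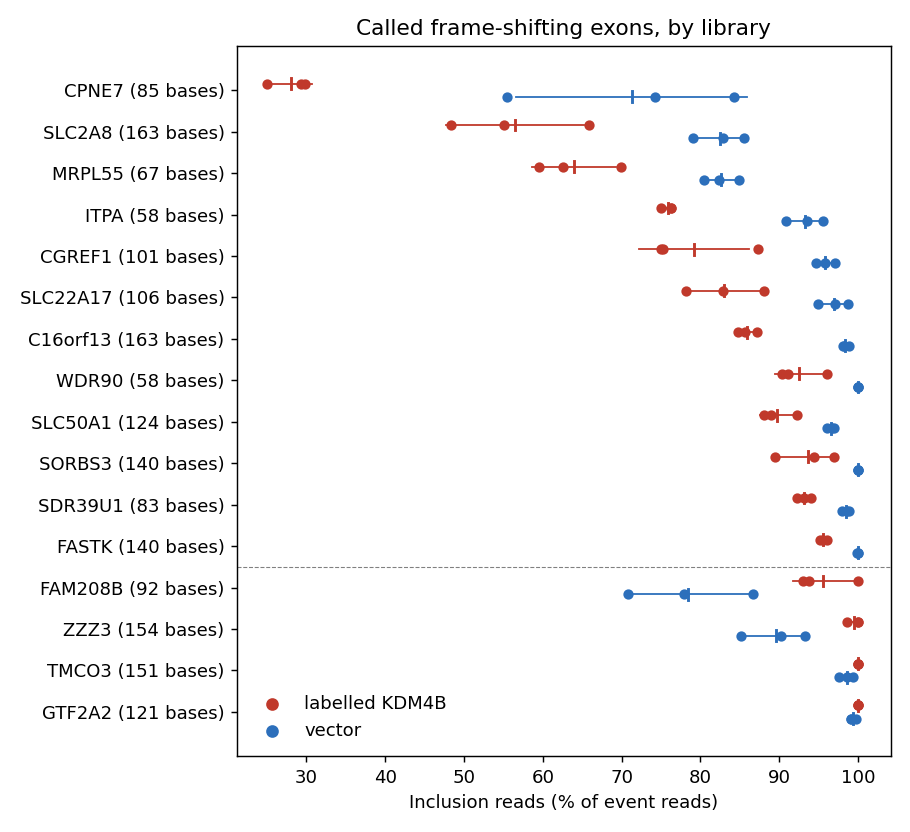
Share of inclusion reads (horizontal axis, % of the reads of the event) for the 16 named called exons, with a point per library, a vertical tick at the mean and a bar of 1 SD (n = 3). The 12 exons above the dashed line had less inclusion in the libraries labelled KDM4B, from CPNE7 at 28.0% against 71.3% to FASTK at 95.6% against 99.9%, and the 4 below it had more.

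More inclusion was called for 4 genes. FAM208B (now TASOR2), a relative of a subunit of the HUSH silencing complex, had a 92-base exon (chr10:5759622-5759713, plus strand) at 93.0% and 93.8% in KDM4B replicates 1 and 2, with no skipping read in replicate 4, and at 77.9%, 70.8% and 86.7% in the vector libraries (edgeR, adjusted p = 0.0480). The skipping transcripts listed for it all came from assembly. ZZZ3, a histone-binding subunit of the ATAC acetyltransferase complex, had 1, 0 and 0 skipping reads against 5, 8 and 12 for an exon of 154 bases (chr1:78105134-78105287, minus strand; edgeR, adjusted p = 0.0214). For TMCO3, a predicted cation antiporter, the 151-base exon (chr13:114193672-114193822, plus strand) had 0, 0 and 0 against 7, 12 and 3 skipping reads (edgeR, adjusted p = 0.0227). With a floor of 3 reads over the group and the vector share taken as observed, this is 4.75-fold lower. GTF2A2 encodes the small subunit of the general transcription factor TFIIA. Its 121-base exon (chr15:59944405-59944525, minus strand) had 0, 0 and 0 against 6, 2 and 5 skipping reads among 503 to 646 inclusion reads per library, 3.86-fold lower in the same way (edgeR, adjusted p = 0.0395). All 4 events met the minimum of 10 skipping reads only through the vector libraries. FAM208B had 7 skipping reads over the libraries labelled KDM4B. The counts behind all 4 were small: the FAM208B and GTF2A2 calls were lost whichever library was left out, that of ZZZ3 was kept only without KDM4B replicate 4, and that of TMCO3 only without KDM4B replicate 4 or vector replicate 3.

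The remaining called genes were SELENBP1, NISCH, AKR7A2, PYCR1, IRF3, RHOA and PKD1, all with less inclusion; they are named after their values were seen. PYCR1, the last enzyme of proline synthesis, had 25, 26 and 43 skipping reads against 10, 3 and 0 for an exon of 164 bases (chr17:79892202-79892365), beside 896 to 1127 and 1998 to 2260 inclusion reads. Its call was kept whichever library was left out (edgeR, adjusted p = 2.18e-05), as it was for both C16orf13 events and 1 of the 2 called events of the 140-base FASTK exon, and for no other frame-shifting event. That FASTK event met the minimum of skipping reads through 1 group only. SELENBP1, a selenium-binding methanethiol oxidase, had 45, 56 and 51 against 1, 4 and 6 skipping reads for an exon of 113 bases. That call (edgeR, adjusted p = 0.00543) was lost only without vector replicate 1. Over the SELENBP1 exons of 179 and 79 bases there were 21, 17 and 14 against 0, 0 and 0 skipping reads. The libraries labelled KDM4B also held more of its inclusion reads, 2949 to 3473 against 1195 to 1330 for the 179-base exon. Skipping of the 179-base exon was 0.538% of the reads there, 6.90-fold the share that the floor of 3 reads allows in the vector libraries. Its call (edgeR, adjusted p = 0.00747) was lost without any of the vector libraries, and this event too entered the test through 1 group only.

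How many calls were made differed between tests and with the library left out. A fit without 1 library also has fewer libraries to test with, so a lost call does not single out that library. DESeq2 called 28 of the 36 and no others. A limma test on log2 odds called 4, in C16orf13, FASTK and WDR90, and fitting events with as little as 1 read of each form called 5, in C16orf13, CPNE7, FASTK and PYCR1. Without vector replicate 1, which had the highest ribosomal RNA share of its group, 6 calls were left, and without vector replicate 3 there were 10. Without vector replicate 2 and KDM4B replicate 1 there were 16 and 18. C16orf13 and FASTK had a call in each of these fits.

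Where 2 frame-shifting exons lie between the same flanks, leaving out both can restore the frame. Among flanks with exactly 2 SE exons, 740 pairs had both exons in the length range and out of frame, and in 404 of them (54.6%) the lengths summed to a multiple of 3. Of the 153 such pairs that were tested, 91 (59.5%) did so. Of the 10 with a call, 7 did so: CPNE7 (140 and 85 bases), CGREF1 (101 and 127), ITPA (65 and 58), RHOA (131 and 121), TMCO3 (151 and 80), WDR90 (119 and 58) and SELENBP1 (179 and 79). The other 3 were FASTK (136 and 115 bases), PKD1 (140 and 113) and SDR39U1 (122 and 83). Pairs whose sum was a multiple of 3 had at least 1 skipping read in 88.6% of cases and at least 10 in 23.5%, and the other 336 pairs in 93.2% and 20.5%. Neither difference was tested. In MRPL55 the partner of the 67-base exon has 38 bases, below the length range, and the lengths sum to 105.

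Several exons with many reads of both forms missed the threshold. The 5 uncalled exons with the most reads of the rarer form belonged to ADAM15, TMEM126B, PFDN5, CTSB and TPD52L1. ADAM15, a membrane metalloproteinase with many cytoplasmic tail variants, had a 70-base exon (chr1:155033239-155033308, plus strand) at 70.7%, 70.0% and 68.1% inclusion in the libraries labelled KDM4B and 76.1%, 77.4% and 80.4% in the vector libraries. The groups did not overlap, yet the log2 odds ratio of -0.63 (95% interval -1.32 to 0.06) missed the threshold (edgeR, adjusted p = 0.323). A second event of the same exon had 97.7% against 98.5%, with overlap (edgeR, adjusted p = 0.609). The 139-base exon of ADAM15 had 99.4% against 99.9%, without overlap (edgeR, adjusted p = 0.193). PFDN5, a subunit of the prefoldin chaperone, lay at 86.0%, 89.0% and 86.2% against 89.4%, 91.5% and 92.5% for its 103-base exon (chr12:53689623-53689725), again without overlap (-0.61, 95% interval -1.34 to 0.11; edgeR, adjusted p = 0.370). TMEM126B, an assembly factor of respiratory complex I, had a 172-base exon (chr11:85342189-85342360) at 61.4%, 58.9% and 65.1% against 52.6%, 53.0% and 58.8% (0.42, 95% interval -0.25 to 1.09; edgeR, adjusted p = 0.544), so the lowest library labelled KDM4B lay just above the highest vector library.

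The lowest inclusion among these 5 was that of CTSB, the lysosomal protease cathepsin B. Its 88-base exon (chr8:11721885-11721972, minus strand) had 26.8%, 35.2% and 31.8% inclusion in the libraries labelled KDM4B and 27.5%, 32.8% and 29.4% in the vector libraries. The groups overlapped, with a log2 odds ratio of 0.09 (95% interval -0.60 to 0.78; edgeR, adjusted p = 0.924). TPD52L1, of the tumour protein D52 family, had 34.5%, 29.8% and 36.9% against 29.8%, 28.6% and 34.2% for an exon of 61 bases (chr6:125578244-125578304), also with overlap (0.19, 95% interval -0.50 to 0.87; edgeR, adjusted p = 0.828). For both exons the table names RefSeq transcripts that lack them. The intervals leave room for changes of up to 0.78 and 0.87 on the log2 odds scale.

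Gene lists for decay factors, splicing regulators, the core spliceosome, chromatin enzymes, DNA repair, androgen-regulated genes and prostate cancer splice variants were followed in the same test. Few of their exons had enough reads of both forms, and 0 of the 27 that were tested were called by edgeR, by DESeq2 or by limma (4 had an unadjusted p below 0.05 with edgeR), beside 5.55% called over all tested SE events, a share at which so few events allow no reading. By list these were 9 of splicing regulators, 8 of androgen-regulated genes, 6 of prostate cancer splice variants, 2 of DNA repair, and 1 each of decay factors and chromatin enzymes, and none of the core spliceosome. Among splicing regulators, ESRP1, which sets epithelial splicing patterns, had a 110-base exon (chr8:95709080-95709189) at 85.3%, 93.4% and 90.5% against 77.8%, 81.4% and 78.6%. The groups did not overlap, and the difference missed the threshold (log2 odds ratio 1.20, 95% interval 0.38 to 2.03; edgeR, adjusted p = 0.0812). ESRP1 itself measured 17.24, 17.40 and 18.62 FPKM against 52.62, 48.47 and 48.79, a fall of the whole gene (log2 fold change -1.44, and -1.21 after scaling; limma, adjusted p = 4.35e-10 as deposited). CLK2, a kinase of SR proteins, had exons of 167 and 95 bases at 95.1% and 92.6% against 97.7% and 96.2% (edgeR, adjusted p = 0.256 and 0.347). UPF3A, the decay factor with a frame-shifting exon in the test, had 91.7% against 96.1% for 107 bases (chr13:115048312-115048418; edgeR, adjusted p = 0.328), with overlap.

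In the other lists SETD5, a SET-domain chromatin protein, had 83.7% against 79.5% for an exon of 193 bases (edgeR, adjusted p = 0.626). RAD51C, a recombination factor, had 98.7% against 96.1% and 97.3% against 93.8% for its pair of 61-base exons (edgeR, adjusted p = 0.491 and 0.573). Of the androgen-regulated genes, the serine protease gene TMPRSS2 had 94.3% against 96.0% for a 71-base exon while its FPKM fell from 421 to 76.7, and SLC43A1, an amino acid transporter, 98.9% against 99.7% (edgeR, adjusted p = 0.768 and 0.228). ACSL3, an acyl-CoA synthetase, had 97.4% against 96.3% for 59 bases and 95.5% against 93.8% for 107 bases (edgeR, adjusted p = 0.660 and 0.697). BCL2L11 encodes the apoptosis inducer BIM. Its 125-base exon (chr2:111911357-111911481) had 36.5%, 37.8% and 32.1% against 16.1%, 32.6% and 24.4%, with overlap (log2 odds ratio 0.73, 95% interval -0.48 to 1.93; edgeR, adjusted p = 0.570). KDM4B and SF3B3 had no frame-shifting exon with both forms recovered and enough reads.

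The joint count of an event could be set against the counts of the other exons of its gene for 16925 frame-shifting events in 5625 genes. This measures how much of the signal of a gene comes from the region of the exon, and by itself it does not say whether the exon was kept or skipped. A lower event count was called for 40 events and a higher one for 51, on 79 exons in 58 genes (edgeR quasi-likelihood test, Benjamini-Hochberg adjusted over all 34215 tested SE events). These 91 calls are 0.538% of the frame-shifting events tested, against 0.693% of all tested SE events; by direction they are 0.236% lower and 0.301% higher, against 0.362% and 0.330%. Of the frame-preserving events 0.657% were called and of the long exons 1.55%. Of the 91 calls, 33 were kept in all 6 fits that left out a library, and DESeq2 called 50, all of them among the 91. Without vector replicate 1, 2 or 3 there were 52, 55 and 51 calls.

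The largest called fall of the ratio was that of SLC2A11, a glucose and fructose transporter. For its 128-base exon (chr22:24226489-24226616, plus strand) the counts were 16, 18 and 12 in the libraries labelled KDM4B and 67, 81 and 62 in the vector libraries. As a percentage of the counts of the other SLC2A11 exons these were 2.87, 3.51 and 2.12 against 11.5, 12.8 and 10.2, and the groups lay far apart (log2 change -2.02, SE 0.23; edgeR, adjusted p = 3.65e-06). PTK2B, the calcium-responsive kinase PYK2, had 28, 31 and 16 against 39, 38 and 40 reads for an exon of 98 bases (chr8:27179919-27180016), although the gene itself rose from 30.5 to 48.6 FPKM (log2 change of the ratio -1.26; edgeR, adjusted p = 0.00264). AFMID, a formamidase of tryptophan breakdown, had 3.05% ± 0.528 against 6.32% ± 0.718 for an exon of 98 bases (chr17:76201174-76201271; SD, n = 3 each; edgeR, adjusted p = 0.000984). H2AFY encodes the histone variant macroH2A1, whose splice forms differ in the binding pocket of the macro domain. Its 91-base exon (chr5:134686513-134686603, minus strand), for which the table names RefSeq transcripts with and without it, had 47, 50 and 55 against 112, 113 and 86 reads, that is 0.471% ± 0.0491 against 0.942% ± 0.132 of the other exons (SD, n = 3 each; edgeR, adjusted p = 9.95e-05). The calls of these 4 genes were kept whichever library was left out.

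TRPM4, a calcium-activated cation channel known in prostate cancer cells, had 8 calls, more than any other gene. The 178-base exon (chr19:49705221-49705398, plus strand) had 301, 296 and 350 reads in the libraries labelled KDM4B and 977, 1041 and 969 in the vector libraries, 18.0% ± 3.69 against 36.0% ± 0.787 of the other exons (SD, n = 3 each; edgeR, adjusted p = 1.85e-07). Further downstream an exon of 73 bases (chr19:49714272-49714344) had 12.6% ± 0.882 against 25.2% ± 1.26 (SD, n = 3 each; edgeR, adjusted p = 5.45e-08). Upstream of both, exons of 175, 181, 100 and 113 bases had higher ratios in 6 of the 8 called events. That of the 181-base exon (chr19:49671174-49671354) was 13.4%, 13.9% and 12.5% against 9.96%, 8.99% and 8.68% (edgeR, adjusted p = 0.00205). This call, those of both lower exons and 1 of 3 at the 100-base exon were kept whichever library was left out, whereas those of the 175-base and 113-base exons and the other two at the 100-base exon were lost in 4 or 5 of the 6 fits. The exons that fell thus lay 3' of those that rose. TRPM4 as a whole fell from 40.6 to 19.1 FPKM. Since each ratio is taken against the rest of the gene, a fall at some exons raises the ratios of others.

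Opposite calls within a gene were also made in ATAD3B, C16orf13, C7orf63, GPT, GTF2H2, IP6K2 and NEDD4L. In C16orf13 the ratio of the 163-base exon fell from 47.6% ± 1.59 to 35.0% ± 4.28 (SD, n = 3 each; edgeR, adjusted p = 0.00702; lost without KDM4B replicate 4 or vector replicate 2), beside the lower inclusion described above. That of its 79-base exon (chr16:684719-684797) rose from 40.8% ± 2.55 to 60.0% ± 1.59 in 1 of its 3 called events (SD, n = 3 each; edgeR, adjusted p = 5.26e-05). ATAD3B, a mitochondrial ATPase, has only 2 exons in the test, of 52 and 71 bases, so its opposite calls are mirror images (log2 change -1.08 and 1.08; edgeR, adjusted p = 0.0336 each), and near-identical relatives of the gene make its counts uncertain. In 5 of 6 fits that left out a library both were lost. GTF2H2, a TFIIH subunit with near-identical copies, is uncertain for the same reason.

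Among the higher ratios, EIF4G1, the scaffold of translation initiation, had 84, 49 and 62 reads in the libraries labelled KDM4B and 23, 17 and 27 in the vector libraries for an exon of 94 bases (chr3:184033551-184033644, plus strand). This was 0.389% ± 0.106 against 0.154% ± 0.0359 of the other exons, so the exon was minor in both groups (SD, n = 3 each; log2 change 1.33; edgeR, adjusted p = 0.000603; kept whichever library was left out). RAP1A, a small GTPase of cell adhesion, had 17, 36 and 23 against 18, 10 and 14 reads for an exon of 94 bases (chr1:112170092-112170185; edgeR, adjusted p = 0.0171), and KDM4B replicate 1 had fewer reads than vector replicate 1 while its ratio was higher. PDDC1 had 27, 29 and 34 against 15, 19 and 22 reads for 106 bases (chr11:774008-774113; edgeR, adjusted p = 0.0177). RASSF7, a Ras association domain protein, had 459% ± 58.5 against 222% ± 21.1 for 131 bases (chr11:561762-561892; SD, n = 3 each; edgeR, adjusted p = 0.0217), set against 1 other exon. This rise cannot be told apart from a fall at that other exon. NBPF14 rose as well (75.9% against 36.2%; edgeR, adjusted p = 0.000178), but it belongs to a family of near-identical copies and its counts are uncertain. The RAP1A call depended on KDM4B replicate 2 and vector replicates 2 and 3, each of which ended it when left out. That of PDDC1 did not pass without KDM4B replicate 4 or vector replicate 1 or 2, nor that of RASSF7 without KDM4B replicate 2 or 4 or vector replicate 1 or 3.

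**Figure D4:**
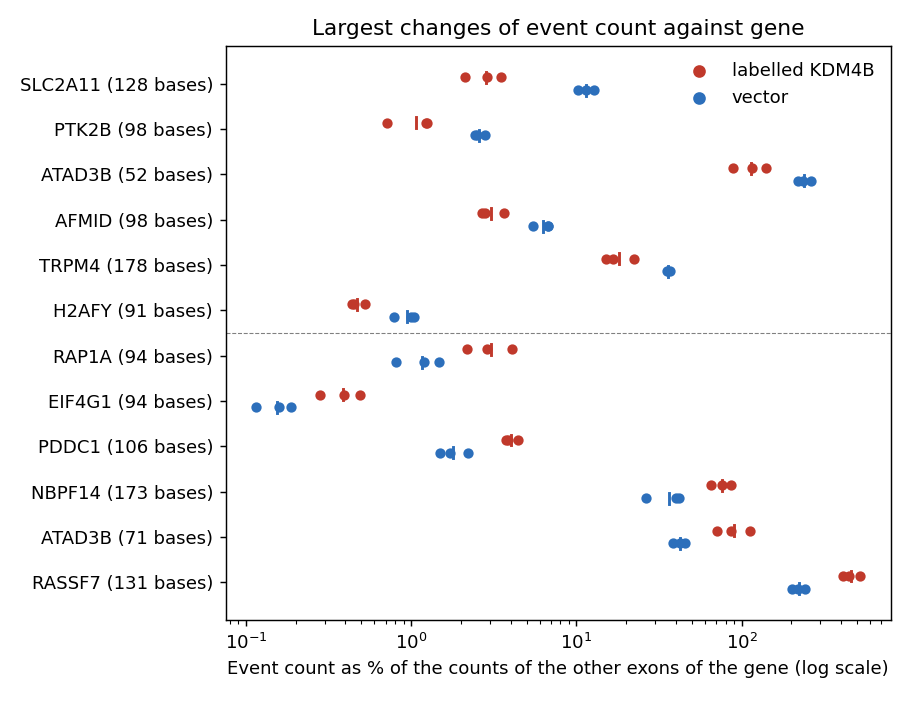
Event count as a percentage of the summed counts of the other exons of the gene (horizontal axis, log scale) for the 6 largest called changes in each direction, with a point per library and a tick at the mean (n = 3). The groups do not overlap in any of the 12 exons; those above the dashed line were lower in the libraries labelled KDM4B, from SLC2A11 at 2.84% against 11.5% to H2AFY at 0.471% against 0.942%, and those below it higher.

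HNRNPA2B1, an RNA-binding protein that regulates splicing and RNA transport, had 300, 294 and 292 reads in the libraries labelled KDM4B and 415, 396 and 420 in the vector libraries for an exon of 136 bases (chr7:26230613-26230748, minus strand) known from assembled transcripts. The ratio to its other exons was 0.726% ± 0.0290 against 1.16% ± 0.0668, with a narrow spread in both groups (SD, n = 3 each; log2 change -0.68, SE 0.06; edgeR, adjusted p = 1.12e-07), and the call was kept whichever library was left out. It was the 1 call among 121 tested events of 38 genes of SR proteins, hnRNPs and other regulators (0.826%, near the 0.693% of all tested SE events; 1 lower, 0 higher; 13 at an unadjusted p below 0.05). In TIAL1, an RNA-binding regulator, the ratio of a 97-base exon was 35.5%, 38.7% and 34.3% against 51.5%, 52.4% and 49.9%, without overlap, and missed the threshold (edgeR, adjusted p = 0.0557). KMT2D, a histone H3 methyltransferase, had lower ratios for exons of 110 bases (chr12:49399526-49399635; 8.89% ± 0.354 against 12.2% ± 1.12) and 127 bases (14.3% ± 0.887 against 17.9% ± 0.845; SD, n = 3 each; edgeR, adjusted p = 0.00242 and 0.0238). The second call was lost without KDM4B replicate 2 or 4 or vector replicate 1 or 3. They were 2 calls among 164 events of the chromatin enzyme list (1.22%, against 0.693% of all tested SE events; 18 at an unadjusted p below 0.05).

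In 4 lists no event was called by edgeR: the luminal prostate markers (0 of 28; 3 at an unadjusted p below 0.05; 0 with DESeq2), the decay factors (0 of 50; 1; 0), the core spliceosome (0 of 51; 5; 0) and DNA repair and checkpoint genes (0 of 168; 17; 0). With 0.693% called over all tested SE events, counts of 0 in lists of this size are near the background. The immune, endothelial and fibroblast markers had no frame-shifting event. Among decay, spliceosome and repair genes the event nearest the threshold was an exon of 149 bases in BARD1, the partner of BRCA1, at 5.63% ± 0.123 against 4.02% ± 0.610 (SD, n = 3 each; edgeR, adjusted p = 0.0977). XRN1, the exonuclease that degrades decapped transcripts, had 7.93% ± 0.463 against 5.82% ± 1.05 for 103 bases (SD, n = 3 each; edgeR, adjusted p = 0.265).

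Of 91 events in androgen-regulated genes, 1 was lower and 2 were higher (3.30%, against 0.693% of all tested SE events; 17 at an unadjusted p below 0.05). The 3 calls lie in 2 genes. ALDH1A3, which makes retinoic acid, had 229, 215 and 244 reads for a 185-base exon (chr15:101440780-101440964) against 1100, 1171 and 1118, while its FPKM fell from 48.4 to 10.3. Set against its 1 other tested exon the ratio was 215% ± 52.9 against 398% ± 21.1 (SD, n = 3 each; edgeR, adjusted p = 0.000482). A fall of this ratio therefore cannot be told apart from a rise at the other exon. DDC, dopa decarboxylase, rose from 21.2 to 184 FPKM, and its 95-base exon (chr7:50566846-50566940) rose further, from 7.31% ± 0.455 to 10.2% ± 0.150 of the other exons (SD, n = 3 each; edgeR, adjusted p = 0.00201). A second event of the 95-base exon, at 5.74% ± 0.180 against 4.34% ± 0.782, missed the threshold (SD, n = 3 each; edgeR, adjusted p = 0.132). The 68-base exon of DDC rose from 6.32% to 8.38% (edgeR, adjusted p = 0.0248; lost without either replicate 1, or without vector replicate 2 or 3).

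Among 109 events of the prostate cancer splice variant list, 2 were higher and 0 lower with edgeR (1.83%, against 0.693% of all tested SE events; 15 at an unadjusted p below 0.05; 1 with DESeq2). DNM2 encodes dynamin 2, the GTPase that cuts endocytic vesicles from the membrane. Its 139-base exon (chr19:10908056-10908194, plus strand), absent from other RefSeq transcripts in the table, had 127, 118 and 115 reads in the libraries labelled KDM4B and 77, 91 and 58 in the vector libraries. The ratio to the other exons was 3.41% ± 0.182 against 1.90% ± 0.376, without overlap (SD, n = 3 each; log2 change 0.84, SE 0.14; edgeR, adjusted p = 0.000815; kept whichever library was left out). ADAM15 had 5.99% against 5.17% for its 70-base exon (edgeR, adjusted p = 0.0337), a call lost in each fit that left out a library. PKM, pyruvate kinase, had 79, 76 and 68 against 76, 85 and 64 reads for a 167-base exon, and the ratio of 0.767% against 1.08% missed the threshold (edgeR, adjusted p = 0.132).

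The transgene's own gene and SF3B3, a subunit of the U2 small nuclear ribonucleoprotein, were followed whatever they showed. None of their 10 tested frame-shifting events was called by edgeR or DESeq2 (1 at an unadjusted p below 0.05 with edgeR). Log2 changes ran from -0.04 to 0.03 for the 4 KDM4B events and from -0.16 to 0.08 for the 6 SF3B3 events, with adjusted p-values of 0.585 to 0.985. The largest of these was the 166-base SF3B3 exon at 7.07%, 6.83% and 7.60% against 7.90%, 8.49% and 7.55% of the other exons, with overlap.

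Genes that hold frame-shifting exons followed the shift of all genes. As deposited, 856 of 6914 tested had a higher level with the KDM4B label and 4414 a lower one (12.4% and 63.8%; limma on log2(FPKM + 1), adjusted p below 0.05), against 13.4% and 60.3% of all tested genes. After median-of-ratios scaling, which moved the median log2 fold change of all genes from -0.22 to 0.00, 2351 were higher and 2486 lower (34.0% and 36.0%, against 34.0% and 34.0% of all genes). Of the 19 genes with less inclusion called, 3 were higher and 14 lower (5 and 11 after scaling), and of the 4 with more inclusion 0 were higher and 4 lower (0 and 2 after scaling; limma). All 384 genes with a tested exon, of which 382 passed the expression filter, leaned the same way, with 9.69% higher and 73.6% lower. After scaling these shares were 26.2% and 46.6%, against 34.0% and 34.0% of all genes. For 24 decay factors the counts were 2 higher and 16 lower (8 and 8 after scaling): UPF1, the central helicase, lay at 40.0 against 40.8 FPKM (limma, adjusted p = 0.493) and 0.21 higher on the log2 scale after scaling (adjusted p = 0.000261), SMG1, the kinase that phosphorylates it, fell from 17.6 to 14.8 FPKM with a change of 0.00 after scaling, and SMG5 fell from 50.5 to 38.8 FPKM under both (log2 fold change -0.37, and -0.13 after scaling; limma, adjusted p = 3.19e-06 and 0.00380).

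At the lower edge of the length rule, exons of 50 bases, just outside, had a median inclusion of 47.0% in the libraries labelled KDM4B against 45.5% in the vector libraries over 2 tested events, and those of 52 bases, just inside, 54.7% against 54.4% over 4. At the upper edge the medians were 98.0% against 99.5% for 200 bases (2 events) and 89.3% against 97.5% for 202 bases (3 events).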

How the data were processed

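RNA of 6 LNCaP libraries was sequenced on an Illumina platform, per the labels. HISAT, StringTie and Cufflinks appear in the submitters' processing notes with no role or version, as do GRCh38 and hg38 as builds. No source used here names the splicing caller. The authors deposited read counts per splicing event, whole numbers that were not normalized, and FPKM values per gene. Sequence names in the event tables have the form used for hg19, and 12.1% of the frame-shifting exons lie inside their gene on the GRCh38 gene table, so the build of the positions is uncertain; starts were shifted to count from 1. No exon sequence is shown because no genome of that build was used here.

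Skipping counts were (SE1 + SE2 - MXE)/2 over 3247 sets of 2 SE events and 1 MXE event; 19478 of 19482 values (99.98%) were exactly even and not negative, and 463 repeat recoveries gave 0 conflicts. Only SE events whose forms could be recovered entered the inclusion test, whereas the planned test assumed that both forms were known. Joint counts of all SE events with enough reads, recovered or not, were tested against their gene. Forms were tested with edgeR 4.0.16 (R 4.3.3; each library and form a term, with the interaction of form and group tested), as was the event against the other exons of its gene that do not overlap it (at least 10 reads of each per library). Adjusted p-values cover all SE events. FPKM were tested with limma 3.58.1 (trend) on log2(FPKM + 1), keeping genes that averaged at least 1 FPKM; these fold changes understate the change of low genes. All tests were two-sided at an adjusted p of 0.05. The edgeR tests and the limma test of FPKM were also run on simulated data, whereas DESeq2 and limma on log2 odds were not. Simulated counts had the same setting of replicate spread for every event, and nothing above rests on them. Intervals are 95% by a normal approximation, with an SE derived from the log2 odds ratio and the F statistic of its test, so they can differ slightly from the p-value. They reflect counting error and replicate spread alone. Floors of 3 reads reflect only the counting error of the group without skipping reads. Alternative 5' splice sites and retained introns were not used here.

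Chi-square over its degrees of freedom, across 17982 events, was 2.01 to 2.40 between replicates, above sampling noise, and 17.8 to 20.7 between libraries of different groups; no library was a copy of another. Only the KDM4B titles end in a suffix, so if it marks a batch, batch and group cannot be told apart.

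The exons, lists and tests were chosen with earlier results of these data known. Named exons were those called in the inclusion test without overlap, 1 per gene and up to 12 per direction; the 5 uncalled with the most reads of the rarer form; up to 4 per gene list by lowest p; the 6 largest called changes per direction against the gene; and those of KDM4B and SF3B3. A further gene of this rule is not reported here. Alternatives were DESeq2 1.42.0, limma on log2 odds, other read minimums, 1 event per gene, another pseudocount, no filter and scaling for FPKM, a replicate block, and fits that each left out 1 library.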

Additional observations from a re-analysis of the deposited data

How the results depend on the processing

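The count of inclusion calls (36: 31 less, 5 more) depended on the settings. It was 28 with DESeq2 (24 and 4), 4 with limma on log2 odds (4 and 0), 5 with no minimum per library (5 and 0 of 2762), 53 with a minimum of 20 reads (44 and 9 of 379) and 14 with 1 event per gene (13 and 1 of 272). With each library left out in turn it was 6 to 39, with 6 to 33 less and 0 to 6 more. Where no event had more inclusion, 25 to 39 had an unadjusted p below 0.05 in that direction, in edgeR or limma. Event-against-gene calls (91: 40 lower, 51 higher) were 50 with DESeq2 (22 and 28) and 51 to 76 with a library left out (23 to 36 lower, 26 to 42 higher). Scaling moved the genes called lower from 4414 to 2486 and higher from 856 to 2351. The cause of these changes was not tested.

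The labels number the replicates, and numbers 1 and 2 occur in both groups. Deviations of the same-numbered libraries correlated at -0.089 and -0.012 over 664 exons, within the -0.112 to 0.123 of differently numbered ones. These values show no sign of pairing, but such weak correlations cannot decide whether the numbers pair the libraries. With a replicate block 7 inclusion calls (7 less, 0 more) and 117 event-against-gene calls were made, 69 of the latter among the 91.

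Values near 0 changed sign. With a library left out, the CTSB log2 odds ratio ran from -0.04 to 0.25, and log2 changes of events against their gene ran from -0.10 to 0.04, -0.01 to 0.08, -0.07 to 0.08 and -0.02 to 0.08 for the KDM4B exons of 83, 194, 200 and 166 bases, and from -0.02 to 0.19, -0.09 to 0.01 and -0.13 to 0.04 for the SF3B3 exons of 113, 142 and 155 bases. Values of 0.00 and 0.01 were among them. With the replicate block the KDM4B exon of 194 bases stood at -0.04 and the SF3B3 exon of 155 bases at 0.08. After scaling the log2 fold change of GTF2A2 was 0.09. Depth limits these results: the inclusion test reached 664 of 19958 events, and few skipping reads lay behind many calls.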
